A study of Homo sapiens with 26 samples.

Results

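KO clone A12 and KO clone F4 are the 2 TET2 knockout clones of this study of TF-1, a line of human erythroleukemia cells grown with GM-CSF, a cytokine they need. They were compared in the 7 conditions that both clones share within 1 batch, which takes 14 of the 26 libraries, with 7 of each clone. In batch 1 these were cells before treatment, cells at 72 h and at 264 h with 200 nM 5-azacytidine (Aza), an inhibitor of DNA methylation, and cells at 264 h with the solvent DMSO. In batch 2 they were cells labelled both pre-treatment and DMSO, and cells at 72 h and at 264 h in DMSO. Both clones are labelled TET2 -/-, so the knockout is shared by every library of this comparison. Clones C4 and A7, wild-type for TET2 (WT), serve as an outside reference through their batch 1 libraries. Each name stands for 1 clone of the line, so libraries of a clone are cultures of that clone, and p-values measure how far the clone difference varied between conditions and batches, not between knockout clones.

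TET2 oxidises 5-methylcytosine in DNA and is often mutated in clonal blood disorders. A clone is the progeny of a single cell, so 2 clones of the same line can differ in chromosome content, in single genes that are on or off, and in how far they lean toward a blood lineage. A difference in copy number usually shows in RNA as a run of neighbouring genes moved by a similar amount, while a silenced or activated gene stands apart from its neighbours. TF-1 cells carry features of erythroid and megakaryocytic progenitors and can make small amounts of hemoglobin.

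The labelled cell type was checked against its markers. CD34, a stem and progenitor surface protein, had 281 to 356 CPM (read counts scaled to a common library size) in A12 and 360 to 492 CPM in F4. GATA1, the main erythroid transcription factor, averaged 107 CPM in A12 and 98.8 CPM in F4, and CSF2RB, the beta chain of the GM-CSF receptor, averaged 303 CPM in A12 and 288 CPM in F4. Libraries held 24992192 to 37168677 counts in A12 and 25971077 to 40187322 counts in F4, so 3 counts, taken as the floor, stood for 0.0747 to 0.120 CPM. TET2 RNA itself was present in every library of both clones, at 31.5, 37.96 and 41.2 CPM (lowest, median and highest) in A12 and at 24.7, 27.7 and 32.4 CPM in F4, so the count over the whole gene does not check the knockout.

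Of 16152 genes tested, 6631 (41.1%) passed an adjusted p under 0.05 in edgeR's quasi-likelihood test with the pair of condition and batch in the fit, 3142 higher in A12 (19.5%) and 3489 lower (21.6%). Most were small: the median size among the called genes was 0.26 on the log2 scale, and 3365 of them lay under 1.2-fold. A difference of at least 2-fold was called for 416 genes (2.58%), 266 higher and 150 lower in A12. The difference had the same sign in all 7 pairs for 4530 of the called genes. Without the replicate block, that is without the pair term, 2004 genes were called, and the count of at least 2-fold was 394. The counts below are read against 41.1%, since a list of ordinary genes would have about that share called.

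The differences were laid out along the chromosomes in windows of 10 Mb, each summarised by the median over its tested coding genes. The 20 called windows of 283 tested (7.07%) passed adjusted p under 0.05 in limma, had the same sign in 7 of 7 pairs and reached at least 0.2 on the log2 scale. They joined into 6 segments: the end of the long arm of chromosome 3, most of the long arm of chromosome 4, the end of the short arm of chromosome 10, a window in the middle of chromosome 10, the end of the long arm of chromosome 14 and a window of chromosome 19. No other window passed 0.169 in size, and the median size over all windows was 0.0274.

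**Figure D1:**
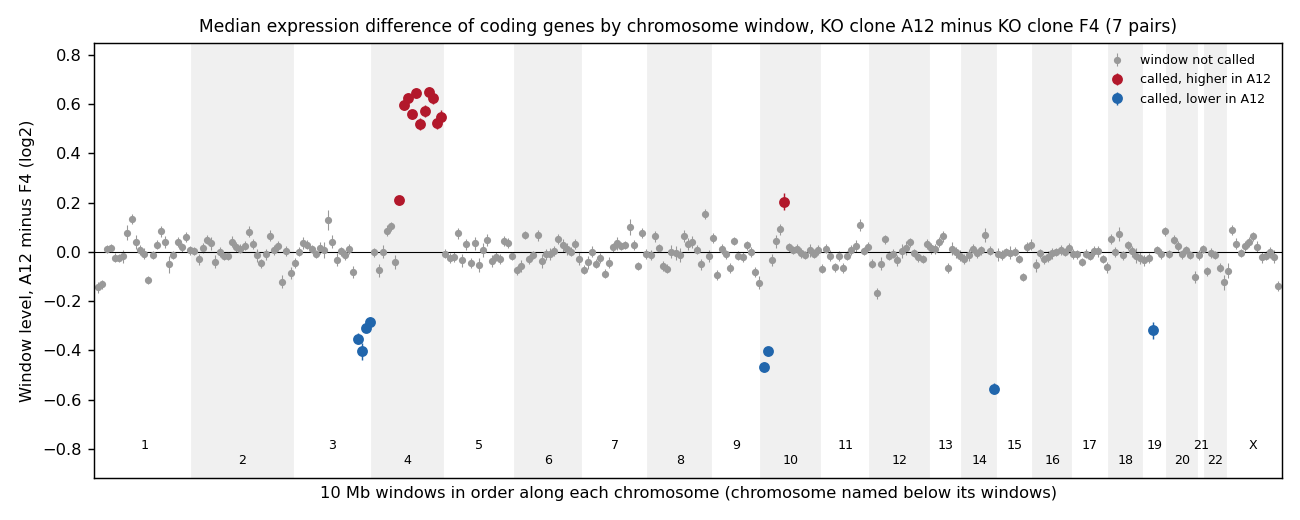
Each point is a 10 Mb window with at least 10 tested coding genes, placed in order along the chromosomes on the x axis, with the median log2 difference of KO clone A12 minus KO clone F4 on the y axis and bars for the standard error over 7 pairs. The 12 called windows above 0 include 11 on chromosome 4, and the 8 below 0 lie on chromosomes 3, 10, 14 and 19.

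Chromosome 4 carried the longest segment. Between 70 and 190 Mb (hg19) 260 coding genes were tested, and 243 of them were higher in A12 than in F4 by sign. The median over all 260 was higher in A12 by 0.55 ± 0.052 on the log2 scale (SD over 7 pairs, range 0.49 to 0.63). Of the 330 genes of any kind tested there, 269 were called higher and 10 lower. The stretch from 130 to 140 Mb within the segment had too few tested coding genes for a window, and the called windows on its sides were joined across it. HNRNPD, an RNA-binding protein (chromosome 4, 83273651 to 83295656), had 1061, 1159 and 1426 CPM in A12, against 789, 836 and 870 CPM in F4 (log2 0.49, SE 0.036, adjusted p = 2.9e-12). RPS3A, a protein of the small ribosomal subunit, had 1605, 1678 and 1872 CPM in A12 and 1042, 1174 and 1403 CPM in F4 (log2 0.50, SE 0.032). For both genes the libraries of the clones did not overlap. The large-subunit protein gene RPL34 averaged 848 CPM in A12 and 605 CPM in F4. TET2 lies in the same segment (chromosome 4, 106067032 to 106200973), and its own difference (log2 0.40, SE 0.043, adjusted p = 2.76e-09) was within 0.5 of the level of its neighbours.

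On chromosomes 3 and 14 and at the end of chromosome 10 the segments were lower in A12. On chromosome 14, from 100 to 110 Mb, 49 of 55 tested coding genes were lower by sign. The median over the 55 was lower by 0.56 ± 0.063 (the signed difference was -0.63 to -0.47 over the pairs). HSP90AA1, the inducible HSP90 chaperone, averaged 2232 CPM in A12 and 3128 CPM in F4 there, EIF5, a translation initiation factor, fell by 0.53 on the log2 scale, and DYNC1H1, the dynein heavy chain, fell by 0.49. At the end of the short arm of chromosome 10, from 0 to 20 Mb, 67 of 69 tested coding genes were lower by sign. The median over the 69 was lower by 0.43 ± 0.051. ATP5F1C, a subunit of ATP synthase, had 306, 318 and 338 CPM in A12 and 438, 502 and 546 CPM in F4 (log2 -0.63, SE 0.032, adjusted p = 2.8e-17), with no overlap between the clones. NET1, a guanine nucleotide exchange factor, fell by 0.64 in the same stretch. On chromosome 3, from 160 to 200 Mb, 127 of 138 tested coding genes were lower by sign. The median over the 138 was lower by 0.32 ± 0.050. AP2M1, an adaptor of clathrin-mediated endocytosis, had 921, 981 and 1071 CPM in A12 and 1222, 1285 and 1428 CPM in F4 (log2 -0.40, SE 0.032). TFRC, the transferrin receptor that brings iron into erythroid cells, also lies there and had 1411, 1700 and 2977 CPM in A12 and 1885, 2440 and 3553 CPM in F4 (log2 -0.40, SE 0.034). TFRC was lower in A12 in 7 of 7 pairs although the ranges of the clones overlapped, and the highest value of each clone was the library of 72 h Aza. It was not called with no replicate block (adjusted p = 0.144).

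A pair of segments was less certain. On chromosome 19, from 20 to 30 Mb, a stretch rich in zinc finger genes, 25 of 26 tested coding genes were lower in A12 by sign. The median over the 26 was lower by 0.32 ± 0.12 (signed range -0.45 to -0.14). Of 53 tested genes of any kind, 28 were called lower. ZNF254 fell by 0.34 and UQCRFS1, a subunit of respiratory complex III, by 0.18. These zinc finger genes resemble each other closely, so reads may be split between them. In the middle of chromosome 10, from 50 to 60 Mb, 12 of 14 tested coding genes were higher by sign. The median over the 14 was higher by 0.20 ± 0.12, and 9 of 25 tested genes of any kind (36.0%) were called higher. That window was called in 3 of the 7 fits that left out 1 pair: leaving out the pair before treatment, at 264 h in Aza or at 264 h in DMSO of batch 1, or at 72 h in DMSO of batch 2, ended the call. The segments were placed from these same pairs, so the exact sign-flip test of each level over 7 pairs (p = 0.0156 two-sided for all 6, the smallest that 7 pairs allow, and the same after adjustment over the 6) describes that every pair had the same sign.

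The WT clones show which knockout clone stood apart. In the 4 matched conditions of batch 1, set against the mean of both WT clones in the same condition, the chromosome 4 segment was at 0.58 ± 0.025 in A12 and at 0.026 ± 0.027 in F4 (log2, SD, n = 4 each). The chromosome 14 segment was at -0.60 ± 0.041 in A12 and -0.0032 ± 0.032 in F4, the end of chromosome 10 at -0.41 ± 0.041 in A12 and -0.015 ± 0.061 in F4, and chromosome 3 at -0.31 ± 0.017 in A12 and 0.011 ± 0.015 in F4. In these 4 segments all libraries of A12 lay outside the range of the WT libraries and the means of F4 lay within it. The chromosome 19 window was at -0.36 ± 0.042 in A12 and -0.10 ± 0.080 in F4. The window in the middle of chromosome 10 differed from the others, at 0.066 ± 0.13 in A12 and -0.14 ± 0.054 in F4, so F4 lay further from WT than A12 did.

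**Figure D2:**
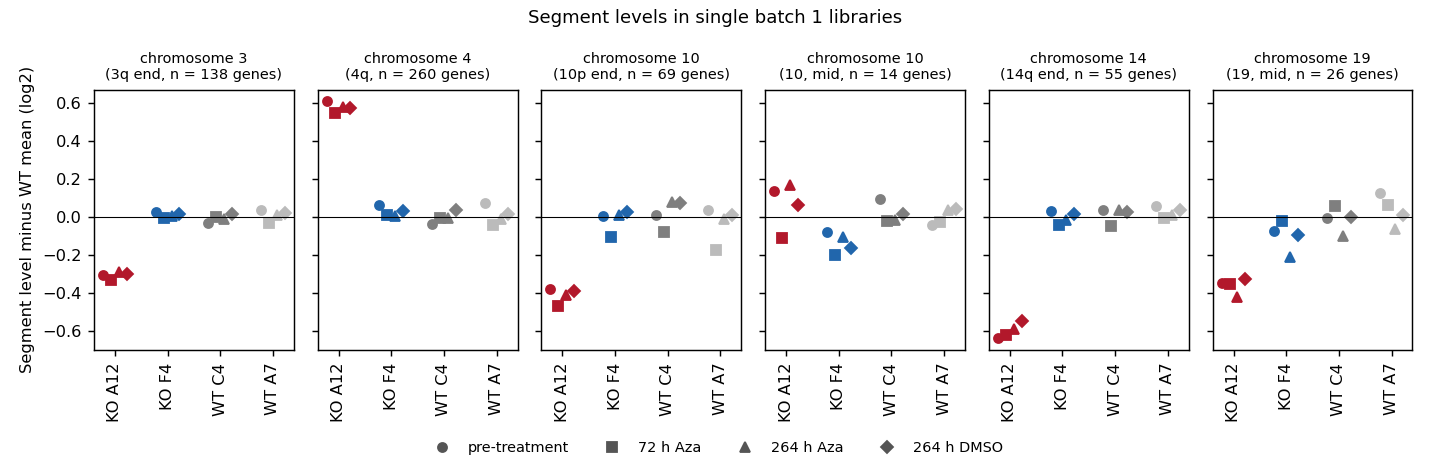
Segment level in each batch 1 library of KO clones A12 and F4 and WT clones C4 and A7, as the median log2 CPM of its coding genes minus the mean of both WT clones in the same condition (y axis), with 1 panel for each segment and 1 marker shape for each condition. The A12 libraries lie from 0.55 to 0.61 on chromosome 4 and from -0.64 to -0.55 on chromosome 14, while those of F4 lie near 0 in both panels.

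The 4 segments that reach a chromosome end have 1 inner edge each, placed over the coding genes of at least 5 CPM where the summed distance of genes from the segment level on 1 side and from the level outside segments on the other was smallest. On chromosome 4 the edge fell between SDAD1 (76862103 to 76912115, log2 0.11) and NUP54 (77035812 to 77069668, log2 0.42), with a median of 0.018 over the 148 genes before it and 0.58 over the 204 genes after it. On chromosome 10 it fell between STAM (17686124 to 17757913, log2 -0.64) and NSUN6 (18834490 to 18940551, log2 0.06), with medians of -0.44 and 0.019. On chromosome 14 it fell between BEGAIN (101003486 to 101053750, log2 -0.06) and PPP2R5C (102228135 to 102394326, log2 -0.71), with medians of -0.0037 and -0.61. On chromosome 3 it fell between KPNA4 (160212783 to 160283376, log2 -0.07) and PPM1L (160473390 to 160796695, log2 -1.001), with medians of -0.011 and -0.34. This last edge is loose, because NMD3 (160822484 to 160971320), just beyond PPM1L, had a log2 difference of 0.07 (adjusted p = 0.131).

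**Figure D3:**
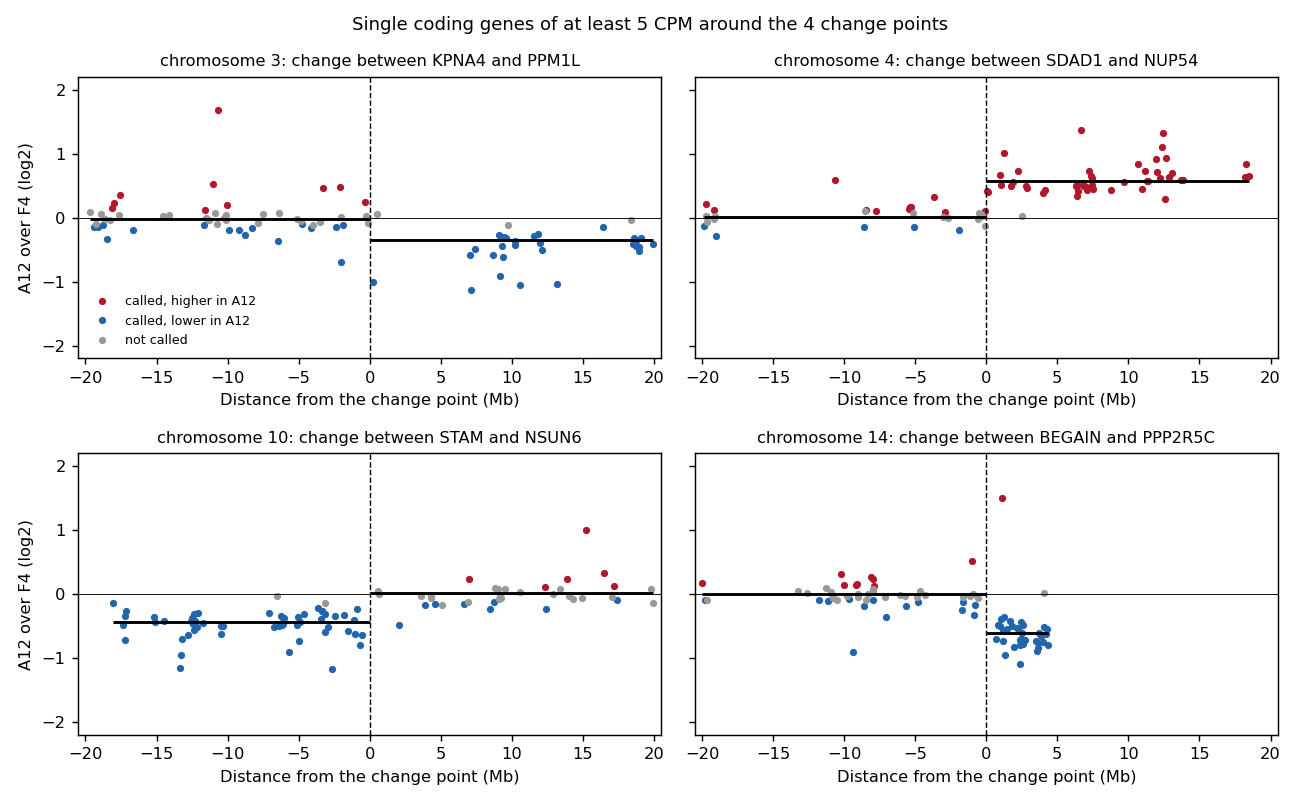
Log2 fold of A12 over F4 for each coding gene of at least 5 CPM (points) against its distance in Mb from the edge of 4 segments, with the distance running along the chromosome and horizontal bars for the median of all such genes on that side of the chromosome. The points step at the edge in each panel, and on chromosome 4 the medians on the sides of the edge are 0.018 and 0.58.

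Genes that moved with their segment were then set apart from the rest. A called gene within a segment, in its direction and within 0.5 of its level was taken as a segment gene, which gave 518 (254 higher and 264 lower in A12), 249 of them on chromosome 4. The other 6113 called genes were single genes. Segment genes made up 7.81% of all called genes and 17.1% of those with at least 1.3-fold. Of the 790 genes tested inside the segments 76.3% were called, against 39.2% of those outside. The segments were placed from these same differences, so a higher share inside follows from how they were chosen. In batch 1, all 4 libraries of A12 lay outside the range of the 8 WT libraries for 10.7% of tested genes, and those of F4 for 4.93%. These shares include genes with both clones outside: of all 16152 tested genes, 1288 had A12 alone outside, 352 F4 alone and 444 both. Of the 518 segment genes, 284 had A12 alone outside the WT range and 3 had F4 alone outside it. Of the 6113 single genes, 838 had A12 alone outside and 244 had F4 alone. The calls used the same libraries of A12 and F4, so these counts are descriptions.

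Inside the segments some genes went their own way. On chromosome 4, 30 called genes were not segment genes. RXFP1, the receptor for relaxin, was at 4.92, 5.63 and 7.08 CPM in A12, 0.184, 0.317 and 0.553 CPM in F4 and 0.0352 to 0.283 CPM in WT. HERC5, an interferon-induced ligase for ISG15, was at 22.1, 24.0 and 34.3 CPM in A12 and 8.50, 9.68 and 13.5 CPM in F4 (log2 1.32, SE 0.053). Its neighbour HERC6 rose by 1.10 on the log2 scale. GYPE, a glycophorin gene of the red cell surface, lies in the raised segment but was lower in A12, at 8.56, 18.3 and 54.7 CPM in A12 and 11.5, 33.8 and 59.1 CPM in F4 (log2 -0.83, SE 0.17, adjusted p = 0.00751), and near-identical genes may share its reads. It passed on batch 2 pairs alone (adjusted p = 1.75e-23) but not on batch 1 pairs alone (adjusted p = 0.167) nor with no replicate block (adjusted p = 0.261). LAMP3, a lysosomal membrane protein on chromosome 3, was at 0.0718, 0.160 and 0.452 CPM in A12, 1.85, 2.35 and 2.62 CPM in F4 and 2.27 to 4.12 CPM in WT, so A12 again stood apart from both.

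The sharpest single genes were on in one clone and near the floor in the other. With at least 1 CPM in all 7 libraries of a clone and under 0.2 CPM in all 7 of the other, 6 genes qualified, and all 6 were on in A12 and off in F4. They were off in WT as well, where no library passed 0.159 CPM. AL049836.1, a noncoding RNA gene (chromosome 14, 102095321 to 102098867), had 22.1, 34.7 and 43.5 CPM in A12 and 0 to 0.110 CPM in F4, with 6814 counts over the A12 libraries and 5 over those of F4. LINC02320, beside it (102100791 to 102197445), had 14.9, 22.5 and 31.6 CPM in A12 and 0 to 0.0736 CPM in F4, with 4629 and 4 counts in A12 and F4. Both lie between BEGAIN and PPP2R5C, the genes that bracket the edge of the lowered segment of chromosome 14. In the same gap the imprinted noncoding RNA MEG3 averaged 252 CPM in A12 and 259 CPM in F4 (log2 -0.01), and DLK1, an imprinted ligand-like protein, averaged 0.381 CPM in A12 and 0.918 CPM in F4 (log2 -1.26, SE 0.22). The deposited counting did not use strand, so reads of genes that overlap on opposite strands cannot be told apart.

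GRID1, a glutamate receptor subunit of the brain (chromosome 10, 87359312 to 88126250), had 12.7, 15.5 and 17.4 CPM in A12 and 0.0245 to 0.171 CPM in F4, a ratio of 226 (exact 95% interval 137 to 404, counting error only). LIN28B, an RNA-binding protein of fetal progenitors that blocks let-7 maturation (chromosome 6, 105404923 to 105531207), had 1.12, 1.64 and 2.66 CPM in A12 and 0 to 0.0394 CPM in F4, a ratio of 99.0 (interval 38.3 to 365). MEIS1, a homeobox partner of HOX proteins in stem cells and leukemia (chromosome 2, 66660584 to 66801001), had 1.14, 1.32 and 1.55 CPM in A12 and 0 to 0.184 CPM in F4, a ratio of 18.5 (interval 11.2 to 32.9). SELENOP, a selenium carrier secreted mainly by the liver (chromosome 5, 42799982 to 42887494), had 1.08, 2.18 and 2.71 CPM in A12 and 0 to 0.0866 CPM in F4, with 403 counts over the A12 libraries and 12 over those of F4. Raising the bounds to 2 CPM for on and 0.1 CPM for off left LINC02320 alone.

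A few further genes came close to that pattern. TMPRSS15, the intestinal protease enteropeptidase (chromosome 21, 19641433 to 19858197), had 28.4, 34.1 and 40.1 CPM in A12, 0 to 0.399 CPM in F4 and 0 to 2.68 CPM in WT (log2 7.68, SE 0.20, adjusted p = 4.5e-11). IGF2BP1, an RNA-binding protein of fetal tissue whose messenger RNA is a target of let-7, had 9.18, 12.0 and 16.7 CPM in A12, 0.171, 0.315 and 0.513 CPM in F4 and 0.106 to 0.755 CPM in WT (log2 5.24, SE 0.12). TRPM6, a magnesium channel, had 10.3, 13.7 and 14.9 CPM in A12 and 0.797, 1.36 and 1.77 CPM in F4 (log2 3.35). CD163L1, a scavenger receptor, rose by 3.37 and DCT, a melanin synthesis enzyme, by 3.65 on the log2 scale. For these 5 genes no library of F4 reached the lowest of A12.

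Genes lower in A12 differed in their WT level. GLIS3, a zinc finger transcription factor, had 0.180, 0.270 and 0.377 CPM in A12, 2.44, 5.02 and 6.36 CPM in F4 and at most 0.0388 CPM in WT (log2 of A12 over F4 -4.09, SE 0.18, adjusted p = 1.21e-18), so F4 stood highest and A12 too lay above WT. PRKD1, protein kinase D1, had 1.62, 1.96 and 2.65 CPM in A12, 7.76, 11.2 and 13.1 CPM in F4 and 0.493 to 2.41 CPM in WT. For CD74 and for CRIP2, a LIM domain protein in the lowered segment of chromosome 14, every A12 library lay below the range of WT. DIP2C lies in the lowered segment at the end of chromosome 10. It had 0.160, 0.351 and 0.685 CPM in A12, 0.945, 2.77 and 3.56 CPM in F4 and 0.633 to 3.32 CPM in WT. The highest A12 library thus overlapped the lowest WT library. MAGEA6 averaged 10.3 CPM in A12 and 89.1 CPM in F4, but its near-identical copy MAGEA3 averaged 110 CPM in A12 and 86.5 CPM in F4, so the share of reads between the copies is uncertain. OGFRL1 had 1.41, 1.94 and 2.84 CPM in A12 and 12.5, 16.8 and 20.6 CPM in F4, and WT libraries lay on both sides, at 0.106 to 0.332 CPM in 4 and 17.2 to 22.5 CPM in 4.

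**Figure D4:**
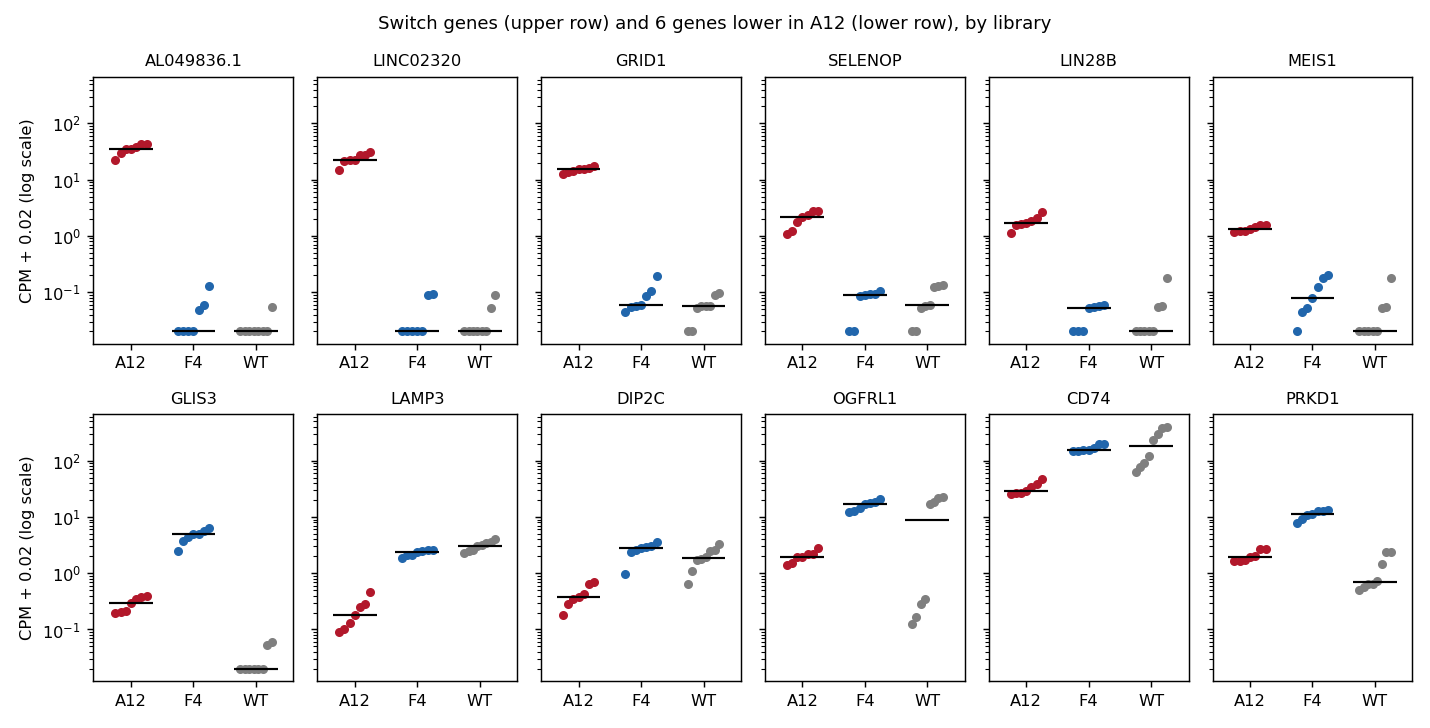
CPM plus 0.02 on a log axis in each library of KO A12 and KO F4 (7 each) and WT (8 of batch 1), with a bar for the median and points sorted by value; the upper row holds the 6 genes on in A12 alone and the lower row 6 genes lower in A12. In the upper row F4 and WT both lie near the floor, while GLIS3 and PRKD1 in the lower row are highest in F4.

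Aza acts on DNA methylation, which falls on C followed by G, so the promoters of these genes are shown with each CG in capitals. The 250 bases before the start come from RefSeq (GRCh38.p14), a build other than that of the counts, and are written 5′ to 3′ on the strand of the gene. A search for CG, which reads the same on both strands, found a median of 11 in all 35116 such promoters, and 93.9% held at least 1. Of the 28 single genes with the largest differences or an on and off pattern, 21 matched an entry. The 12 higher in A12 had a median of 7 CG, with at least 10 in 5 of them. The 9 lower in A12 had a median of 27, with at least 10 in 7 of them. Over all 27305 genes the median was 12, and 54.9% held at least 10. These gene values all count each gene by its richest start. The first 5 sequences belong to genes higher in A12 and the last 2 to genes lower there. TMPRSS15, in the first 5, came close to the on and off pattern without meeting its bounds. Among genes lower in A12, CD74 with 2 and PADI1 with 3 are poor in CG. The sequences shown were chosen for the range of CG content among genes higher in A12 and for CG-rich promoters among genes lower there. They are LINC02320 at chr14:101731307-101731556 on the minus strand with 6 CG, the first start of LIN28B at chr6:104940715-104940964 on the plus strand with 33, MEIS1 at chr2:66434875-66435124 on the plus strand with 16, SELENOP at chr5:42811893-42812142 on the minus strand with 0 and TMPRSS15 at chr21:18403786-18404035 on the minus strand with 0. OGFRL1 at chr6:71288561-71288810 on the plus strand has 34 and DIP2C at chr10:689669-689918 on the minus strand has 49.
LINC02320: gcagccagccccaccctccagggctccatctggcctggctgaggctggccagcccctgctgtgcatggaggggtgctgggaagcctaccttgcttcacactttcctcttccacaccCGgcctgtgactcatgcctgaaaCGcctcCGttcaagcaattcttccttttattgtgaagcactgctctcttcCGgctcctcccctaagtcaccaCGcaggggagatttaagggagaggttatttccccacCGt
LIN28B: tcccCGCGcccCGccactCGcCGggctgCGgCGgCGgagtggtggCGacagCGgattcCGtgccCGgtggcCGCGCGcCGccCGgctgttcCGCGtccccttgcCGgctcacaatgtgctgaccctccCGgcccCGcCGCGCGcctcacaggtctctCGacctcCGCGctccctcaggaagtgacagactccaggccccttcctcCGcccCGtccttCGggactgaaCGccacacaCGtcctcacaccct
MEIS1: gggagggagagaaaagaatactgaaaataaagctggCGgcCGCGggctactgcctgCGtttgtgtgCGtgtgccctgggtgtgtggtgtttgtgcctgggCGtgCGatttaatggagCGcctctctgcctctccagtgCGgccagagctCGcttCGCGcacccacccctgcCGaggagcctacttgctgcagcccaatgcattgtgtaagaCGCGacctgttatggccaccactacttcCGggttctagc
SELENOP: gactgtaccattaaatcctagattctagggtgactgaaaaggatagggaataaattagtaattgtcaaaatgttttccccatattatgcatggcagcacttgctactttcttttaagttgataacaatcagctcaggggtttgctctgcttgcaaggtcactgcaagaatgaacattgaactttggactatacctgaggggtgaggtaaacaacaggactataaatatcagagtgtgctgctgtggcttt
TMPRSS15: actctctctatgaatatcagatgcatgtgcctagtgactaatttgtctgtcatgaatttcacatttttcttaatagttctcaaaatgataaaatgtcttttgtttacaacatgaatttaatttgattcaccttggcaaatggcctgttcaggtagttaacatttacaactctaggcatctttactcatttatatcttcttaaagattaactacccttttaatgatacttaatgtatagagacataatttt
OGFRL1: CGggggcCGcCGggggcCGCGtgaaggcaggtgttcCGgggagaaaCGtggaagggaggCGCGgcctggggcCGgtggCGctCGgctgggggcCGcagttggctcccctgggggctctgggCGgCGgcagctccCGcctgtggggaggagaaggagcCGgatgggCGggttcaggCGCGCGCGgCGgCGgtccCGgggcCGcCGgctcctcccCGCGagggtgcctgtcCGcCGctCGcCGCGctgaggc
DIP2C: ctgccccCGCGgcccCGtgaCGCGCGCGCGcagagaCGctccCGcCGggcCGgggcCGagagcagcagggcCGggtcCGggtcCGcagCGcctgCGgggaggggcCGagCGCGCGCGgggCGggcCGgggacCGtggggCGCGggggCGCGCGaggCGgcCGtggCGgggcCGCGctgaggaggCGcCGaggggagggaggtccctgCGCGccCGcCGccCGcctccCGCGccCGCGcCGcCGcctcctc
Genes on in A12 thus included promoters with no CG and with 33, and CG content is a description of these letters only.

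Lineage and pathway lists of 25 kinds, with 623 of 629 memberships matched to the table, were read next, each against the 41.1% called and the median of -0.005 over all genes. In bulk RNA, fewer cells of a type and less RNA per cell cannot be told apart. Of 10 hemoglobin genes tested, 5 were called lower and none higher (median -0.46). Their summed level was 85.4, 141 and 332 CPM in A12 and 139, 242 and 389 CPM in F4, lower in A12 in 7 of 7 pairs. HBG1, a fetal gamma-globin, was at 0.339, 0.590 and 3.62 CPM in A12 and 1.05, 3.06 and 5.70 CPM in F4 (log2 -1.67, SE 0.19, adjusted p = 7.71e-07), though it shares reads with the near-identical HBG2. HBB, the adult beta-globin, was at 4.81, 8.35 and 27.3 CPM in A12 and 10.3, 17.9 and 41.7 CPM in F4 (log2 -0.99, SE 0.22, adjusted p = 0.0113). The clones overlapped for both genes. Within batches HBB did not pass (adjusted p = 0.0555 in batch 1 and 0.195 in batch 2), while HBG1 did (adjusted p = 0.00035 and 7.24e-12). With the replicate block left out, 1 hemoglobin gene of the 10 was called, HBG1 kept its call (adjusted p = 0.0459) and HBB lost it (adjusted p = 0.142).

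Of 24 red cell membrane and blood group genes tested, 16 were called lower and 2 higher (median -0.26), and 13 of the 16 lay outside the segments. ADD2, a membrane skeleton protein, was at 1.84, 2.19 and 4.99 CPM in A12 and 4.27, 6.12 and 9.78 CPM in F4 (log2 -1.22, SE 0.096), and AQP1, a water channel, fell by 0.78. Among the exceptions was KEL, the Kell blood group protein, at 28.2, 39.96 and 46.5 CPM in A12 and 15.0, 23.0 and 27.2 CPM in F4 (log2 0.85). In the fit with no replicate block 5 were lower and 1 higher. Of 21 erythroid regulators and receptors, 6 were higher and 2 lower (median -0.03, 38.1% called, a share near that of all genes), and with no replicate block 0 were called. MYB, which holds progenitors in an immature state, was higher by 0.17 and GATA1 by 0.11, and KLF1, the activator of adult globin, was at 99.7 CPM in A12 and 112 CPM in F4 (adjusted p = 0.0787). Of 18 genes of heme synthesis and iron, 8 were lower and 4 higher, with ALAD lower by 0.47 and HMOX1, heme oxygenase, higher by 0.47, and with no replicate block 1 was lower and 1 higher. Erythroid enzymes were mixed (4 higher and 5 lower of 14): SELENBP1 rose by 1.49 and carbonic anhydrase CA2 fell by 0.88 on the log2 scale.

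Of 21 antigen presentation genes tested, 12 were lower and 5 higher (median -0.15, 81.0% called). CD74, the invariant chain of MHC class II, was at 25.6, 28.6 and 47.9 CPM in A12, 147, 158 and 200 CPM in F4 and 62.4 to 405 CPM in WT (log2 -2.39, SE 0.090, adjusted p = 1.35e-07). HLA-DRA was at 97.1, 112 and 161 CPM in A12 and 159, 210 and 300 CPM in F4 (log2 -0.86, SE 0.047). HLA-DRB1 fell by 0.91, HLA-DQB1 by 1.01, HLA-DPA1 by 0.81 and HLA-DMB by 0.68, and CIITA, the activator of class II transcription, fell by 0.54. The class I gene HLA-B was at 14.0, 21.9 and 25.9 CPM in A12 and 6.35, 11.1 and 21.4 CPM in F4 (log2 0.71, SE 0.14, adjusted p = 0.00374), and the immunoproteasome genes PSMB9 and PSMB8 rose by 0.43 and 0.34. Among other class I genes, HLA-C rose by 0.20, B2M fell by 0.15, and HLA-E (log2 -0.07) was not called. With no replicate block 9 were lower and 2 higher.

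Mast cell, basophil and eosinophil genes were mostly higher in A12, with 10 higher and 4 lower of 18 tested (median 0.43, 77.8% called). IL1RL1, the receptor of interleukin 33, was at 0.701, 1.56 and 16.5 CPM in A12 and 0.370, 0.829 and 7.80 CPM in F4 (log2 1.21, SE 0.14), and ENPP3 rose by 1.22. PRG3, an eosinophil granule protein, was at 0.396, 1.07 and 20.0 CPM in A12 and 0.0490, 0.311 and 3.46 CPM in F4 (log2 2.01, SE 0.21). The highest library of each clone was one of Aza for both genes. HPGDS, prostaglandin D synthase, rose by 0.84 but lies in the raised segment of chromosome 4. The members that went the other way were MS4A2 (log2 -1.19) and FCER1G (log2 -0.64), chains of the high-affinity IgE receptor, CPA3 (log2 -0.85) and KIT (log2 -0.76), and the receptor chain FCER1A was at 116 CPM in A12 and 110 CPM in F4. The markers CMA1, CLC and EPX were too low to be tested. The fit with no replicate block called 4 higher and 3 lower.

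Stem and progenitor genes moved both ways, with 5 higher and 7 lower of 15 tested (median -0.23, 80.0% called). Beside LIN28B, IGF2BP1 and MEIS1, PROCR rose (log2 0.52, not called on batch 1 pairs alone). CD34 was at 281, 338 and 356 CPM in A12 and 360, 451 and 492 CPM in F4 (log2 -0.43, SE 0.032), without overlap. KIT, the stem cell factor receptor, was at 9.45, 11.0 and 35.9 CPM in A12 and 18.3, 19.5 and 45.6 CPM in F4, a difference not called with no replicate block (adjusted p = 0.166). ERG fell by 0.52, and MECOM by 0.59 within the lowered segment of chromosome 3. Megakaryocyte genes gave 4 higher and 6 lower of 16: THBS1, thrombospondin, fell by 1.25 but was not called on batch 1 pairs alone. With no replicate block 3 were higher and 2 lower. Among granulocyte and monocyte genes, 3 were higher and 3 lower of 11, with CEBPE higher by 1.32.

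Germline and cancer-testis genes, which DNA methylation keeps silent in most tissues, had 8 higher and 1 lower of 11 tested (median 0.71, 81.8% called), and 21 of the 32 were too low to be tested. MAGEC1 was at 35.6, 42.8 and 52.1 CPM in A12 and 10.9, 15.8 and 20.3 CPM in F4 (log2 1.53, SE 0.056), and MAGEB2 at 2.08, 3.16 and 4.80 CPM in A12 and 0.173, 0.368 and 0.577 CPM in F4 (log2 3.02, SE 0.17). Neither gene overlapped between the clones. MAGEA6, with its uncertain share of reads, was lower in A12 as given above. The summed level of the list was 251, 304 and 344 CPM in A12 and 270, 304 and 350 CPM in F4. That sum was higher in A12 in 1 of 7 pairs. Of 17 genes of the DNA methylation machinery, 4 were higher and 2 lower (35.3% called, below the share of all genes). Of the 4 higher, 3 lay outside the segments. TET2 itself, on the raised segment of chromosome 4, was higher in A12 as given above. DNMT3B rose by 0.30, and DNMT1, at 489 CPM in A12 and 508 CPM in F4, was not called (adjusted p = 0.206). Imprinted genes had 4 higher and 4 lower of 21 (38.1% called) and HOX genes 1 higher and 6 lower of 19 (36.8% called). Clustered protocadherins had none higher and 1 lower of 3 (33.3% called).

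Of 27 interferon response genes, 10 were higher and 5 lower (median 0.04, 55.6% called). XAF1, an interferon-induced tumour suppressor, was at 3.69, 4.29 and 5.71 CPM in A12 and 1.17, 1.64 and 1.73 CPM in F4 (log2 1.54, SE 0.11), and IFI6 rose by 1.00. Of the 10 higher, 8 lay outside the segments, and HERC5 and HERC6 lie in the raised segment of chromosome 4. Among the lower members, IFIT1 had medians of 3.88 CPM in A12 and 4.52 CPM in F4. Its call was lost under 16 of the alternative fits, the most of any named gene, and the ranges of the clones overlapped. IFIT2 had 2.94 CPM in A12 and 3.95 CPM in F4, and USP18 had 6.55 CPM in A12 and 7.65 CPM in F4. The fit without pairs called 9 of the list higher and none lower. Of 22 genes of GM-CSF, erythropoietin and KIT signalling, 11 were higher and 1, KIT, was lower (median 0.10, 54.5% called). OSM, the cytokine oncostatin M, was at 32.4, 41.1 and 51.0 CPM in A12 and 20.7, 23.8 and 33.4 CPM in F4 (log2 0.69, SE 0.057), and the D-type cyclins CCND2 and CCND1 rose by 0.53 and 0.48. Without the replicate block 4 were higher.

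In the G1/S list 17 were lower and 3 higher of 28 (median -0.11, 71.4% called), and in the G2/M list 14 lower and 3 higher of 27 (median -0.10, 63.0% called). The 3 higher in the G1/S list were CCNA2 (log2 0.26), RRM2 (log2 0.42) and CDC6, a replication licensing factor. CDC6 was at 59.3, 66.7 and 105 CPM in A12 and 35.4, 42.0 and 64.5 CPM in F4 (log2 0.69, SE 0.036). Outside the segments lay 2 of these 3 and 16 of the 17 lower. CCNA2 lies in the raised segment of chromosome 4. The largest fall of the G2/M list was ECT2 (log2 -0.51), on the lowered segment of chromosome 3, and its largest rise CENPE (log2 0.66), on that of chromosome 4. Without the replicate block 4 of the G1/S list and 3 of the G2/M list were lower. Cholesterol synthesis had 13 lower and 2 higher of 22 (median -0.18, 68.2% called), led by IDI1 (log2 -0.71) within the segment of chromosome 10, and without the replicate block 5 were lower. Mitochondrially encoded genes had 6 higher and none lower of 13 (46.2% called), p53 targets 4 higher and 7 lower of 25 and heat shock and unfolded protein genes 1 higher and 6 lower of 22.

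Markers of other cell types gave no common direction. Of 22 lymphoid genes 10 were tested, 2 higher and 2 lower. CD3D, a chain of the T cell receptor complex, was at 36.4, 48.6 and 60.2 CPM in A12, 9.78, 16.6 and 17.2 CPM in F4 and 0.530 to 4.08 CPM in WT (log2 1.64, SE 0.060), while its partners CD3E and CD3G were too low to be tested. CD4 fell by 0.57. The summed level of the lymphoid list was 131 to 185 CPM in A12 and 145 to 185 CPM in F4. Of 14 non-blood genes tested, 6 were higher and 4 lower, with sums of 425 to 652 CPM in A12 and 547 to 747 CPM in F4. VIM, vimentin, fell by 0.62 within the lowered segment of chromosome 10, and COL1A1, at most 6.07 CPM, rose by 1.11. The part of other cells in the results above was not tested. With no replicate block, 0 members were called among the granulocyte and monocyte genes, the mitochondrial genes and the protocadherins. That fit called 3 stem and progenitor genes higher and 5 lower, 2 erythroid enzymes higher and 2 lower, 2 non-blood genes higher and 1 lower, 3 imprinted genes higher and 1 lower, 2 genes of DNA methylation higher, 2 HOX genes lower, and 1 gene lower in each of the p53 and heat shock lists.

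**Figure D5:**
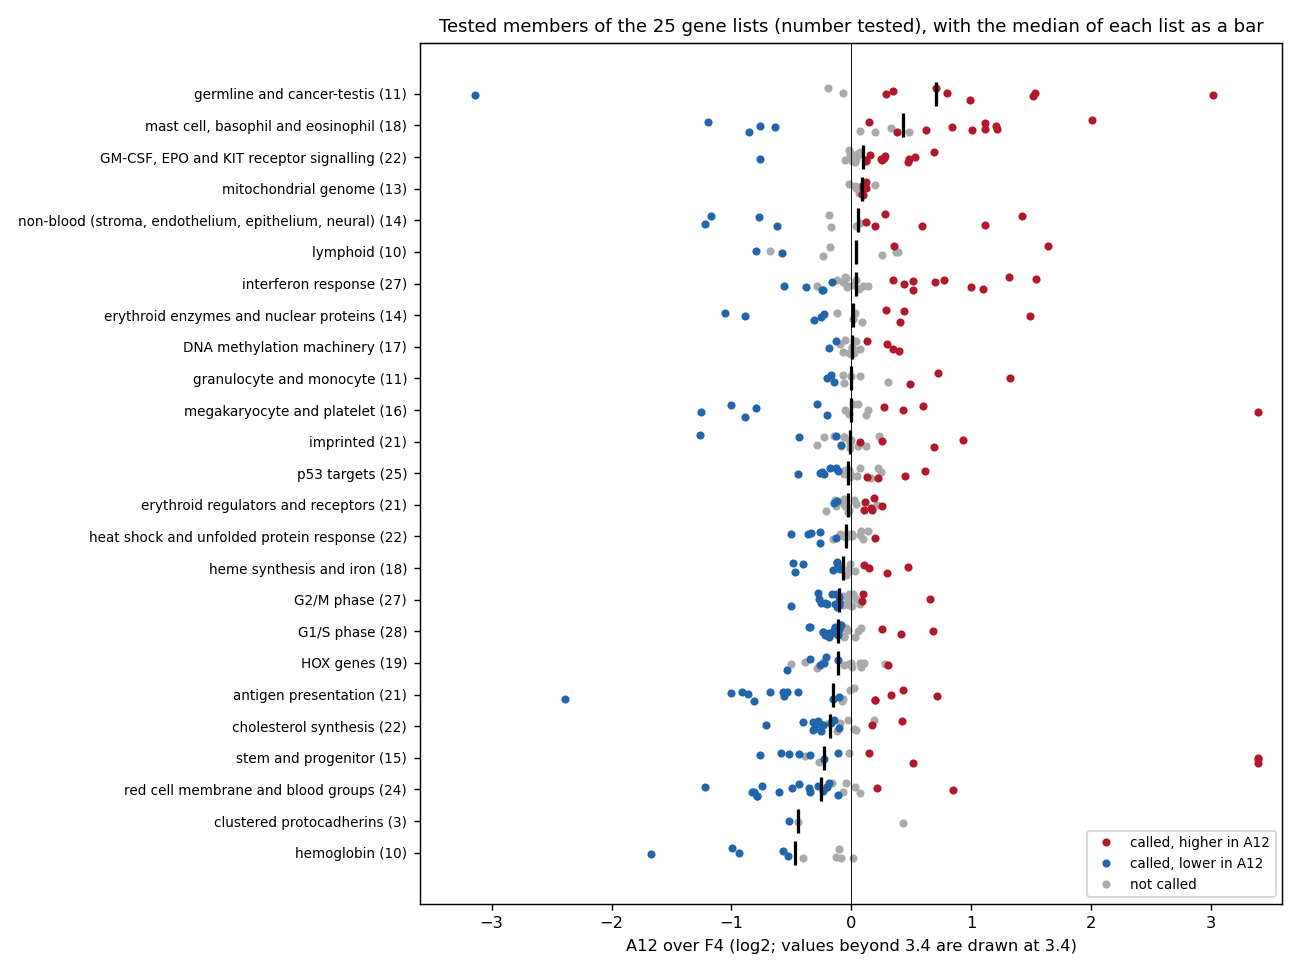
Log2 fold of A12 over F4 (x axis) for every tested member of the 25 lists (rows, with the number tested), with a bar for the median of the list. Hemoglobin lies lowest at a median of -0.46 and germline and cancer-testis genes highest at 0.71, and in most lists members lie on both sides of 0.

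Few genes passed a test of whether the difference between the clones changed in the Aza pairs. Only 2 pairs had Aza, and how small a change they could show was not tested. The 72 h DMSO pair of batch 1 was left out, so within that batch Aza and time in culture cannot be told apart at 72 h. A test of whether the clone difference in the Aza pairs departed from that in the other pairs, with batch in the fit, called 2 of 16152 genes (0.0124%), with 668 genes at an unadjusted p under 0.05. CD93, a receptor of endothelium and early blood cells, had 10.6 and 15.4 CPM in the Aza libraries of A12 and 8.46 to 12.1 CPM in its other libraries. In F4 it had 1.69 and 2.72 CPM in the Aza libraries and 0.294 to 0.769 CPM in the others. The clone difference was thus 2.5 and 2.6 on the log2 scale in the Aza pairs and 3.86 to 4.89 in the others (interaction -1.84, SE 0.32, adjusted p = 0.0156). HBBP1, a pseudogene of the beta-globin cluster, differed by 1.72 and 1.73 in the Aza pairs and by 0.49 to 0.97 in the others (interaction 1.07, SE 0.18, adjusted p = 0.0156). Leaving out the pair before treatment ended both calls, and leaving out either Aza pair raised the count to 9. Between batches, a test of the clone difference called 0 genes (0%), with 709 at an unadjusted p under 0.05 in edgeR. Leaving out the pair at 264 h in DMSO of batch 2 raised that count to 21.

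The 2 WT clones give a measure of how far clones of this line differ. Over the 3 treated conditions of batch 1, A12 against F4 called 3973 of 16292 genes (24.4%) and C4 against A7 called 2430 of 16120 (15.1%), in fits of the same size. At least 2-fold differences were 472 between A12 and F4 and 277 between C4 and A7. The pre-treatment WT libraries go against their clone labels: OGFRL1 was at 22.5 CPM in the A7 library and 0.332 CPM in the C4 library of that harvest, while in the other 3 conditions C4 was at 17.2 to 21.8 CPM and A7 at 0.106 to 0.261 CPM. With that harvest included, C4 against A7 called 0 genes in edgeR (784 at an unadjusted p under 0.05) and 29 in DESeq2, and A12 against F4 called 4829 in edgeR. The 2 comparisons were not tested against each other.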

How the data were processed

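RNA of TF-1 cells was sequenced with a stranded messenger RNA kit, per the labels' protocols. The authors deposited 1 table of raw counts with 57773 genes. It was made by featureCounts 1.6.2 over the exons of GENCODE 19 (hg19) with no strand option, per the file headers. Per the submitters' processing notes, cutadapt, FastQC and STAR 2.6.1d came before. Symbols came from a names table for 39538 IDs and from GENCODE 29 for 12800, and 5435 kept their ID.

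edgeR 4.0.16 (R 4.3.3) gave TMM-scaled CPM, and log2 CPM with a prior count of 2, from the deposited counts. Genes passing filterByExpr were tested with robust quasi-likelihood fits with terms for pair and clone, Benjamini-Hochberg adjusted over all genes. Every adjusted p of a gene is from this fit unless named otherwise. Window medians were tested with limma 3.58.1. WT levels are CPM scaled over the 16 batch 1 libraries, separately from the 14. DESeq2 1.42.0, other scaling, filters and windows, single batches and leaving out each pair were alternatives. Both tests were tested on simulated data with known changes.

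Pairing comes from the labelled condition and batch, not from replicate numbers. Over 3000 variable genes, deviations of an A12 library from its clone mean correlated at 0.321 to 0.692 with its partner and at most 0.199 with any other F4 library. All 42 pairings of libraries of 1 clone differed by more than counting noise, the smallest chi-square divided by its degrees of freedom being 3.84. The 72 h DMSO pair of batch 1 was left out because its F4 library failed quality control.

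Members and lists were chosen with earlier results of these data known. Named were the 3 most abundant segment genes of each segment, TET2, the 12 largest rises and falls among single coding genes of one sign in 7 pairs with at least 2 CPM, at most 4 called members of a list in each direction, the on and off genes and genes called in an interaction. Genes beside them (genes at segment edges, further members of the lists and genes that check the cell type) were chosen after their values were seen.
Results for a few genes are not reported here.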

Additional observations from a re-analysis of the deposited data

Results flagged for a closer look

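In 8 of 196 series of pair differences examined, 1 pair of the 7 lay far from the others. Chance flags about 1 in 20 such series. In 4 of the 8 the pair was that of 72 h Aza. There the log2 difference of A12 minus F4 was -0.326 for HSP90AA1 (the other pairs -0.597 to -0.488), -0.347 for KIT (others -1.04 to -0.751), -0.201 for THBS1 (others -1.77 to -1.13) and 1.43 for COL1A1 (others 0.797 to 1.05). In 3 the pair was that of 264 h Aza, with -0.207 for AP2M1 (others -0.490 to -0.377), 0.771 for HNRNPD (others 0.368 to 0.505) and 1.15 for SLC22A4 (others 0.155 to 0.548). In 1, RPS3A at 0.687 (others 0.416 to 0.530), it was the pre-treatment pair of batch 2. Each kept its sign in all 7 pairs.

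The clone difference of CD93 in the Aza pairs minus that in the other pairs was -1.84, and that of HBBP1 was 1.07, both past the threshold of the interaction test.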

How the results depend on the processing

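Directions held for the named genes under every alternative except with the failed pair added, where TRIM58 was at 0.015 and MT-ND3 at -0.0014. The count of called genes depended on how pairs were fitted. It was 2004 (1052 higher, 952 lower) without the replicate block, 4343 (2039 and 2304) with additive condition and batch, 3865 (1999 and 1866) with the failed pair and 5865 to 6334 leaving out 1 pair. Of 194 named genes, 92 were not called without the replicate block and 24 were lost when some pair was left out.
The count of at least 2-fold was 816 with no filter and 265 with a filter of 1 CPM in 7 libraries. Called windows covered 470 Mb with no minimum difference. The segment levels, for chromosomes 3, 4, 10 (end), 10 (middle), 14 and 19, were -0.333, 0.522, -0.417, 0.226, -0.546 and -0.358 in batch 1 pairs and -0.307, 0.585, -0.456, 0.175, -0.569 and -0.267 in batch 2 pairs, where too few pairs remained for the exact test to pass. The Aza interaction called 4 genes in batch 1 pairs, 3 with no batch term and 0 to 9 leaving out 1 pair, and the batch interaction 0 to 21. In DESeq2 the clone pairs of batch 1 gave 2190 calls for A12 against F4 and 1036 for C4 against A7, and C4 against A7 with the pre-treatment pair gave 0 in edgeR. The cause of these changes was not tested. Depth limits values near 3 counts in a library.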

Other observations

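A batch 1 library of A12 at 72 h in DMSO took no part in the comparison, because its F4 partner failed quality control. Set against the 2 WT libraries of that condition, its segment levels were -0.278 on chromosome 3, 0.564 on chromosome 4, -0.425 at the end of chromosome 10, 0.0910 in the middle of chromosome 10, -0.588 on chromosome 14 and -0.368 on chromosome 19 (log2, no replicates). AL049836.1 was at 41.0 CPM in it, LINC02320 at 31.4, GRID1 at 12.3, LIN28B at 2.34, SELENOP at 1.45 and MEIS1 at 1.15 CPM. The failed F4 library held at most 0.218 CPM of any of these 6 genes. Its segment levels against the same WT libraries, in the same order, were -0.155, -0.124, -0.0521, -0.470, 0.224 and -0.506. On chromosome 19 it thus lay below the A12 library. Over genes, the difference of this pair correlated at 0.457 with the fold of the 7 pairs, and the 7 pair differences correlated with one another at 0.555 to 0.706.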
